A study of Mus musculus with 18 samples.

Results

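The cluster of miR-183, miR-96 and miR-182 was examined through its 3 main mature miRNAs, which are the 5p arms mmu-miR-183-5p, mmu-miR-96-5p, and also mmu-miR-182-5p. They were 3 of 203513 features and 3 of 1978 mature miRNAs in the count table. They were selected by name. The selection was made knowing that these miRNAs were low in glial fractions of mutant mice, so their difference between genotypes in astrocytes and microglia is given as a description without a test. Their levels in neurons, their levels across cell fractions, their relative shares and the features that varied with them did not enter the selection.

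The libraries came from brains of mice aged 10 months with a C57BL/6 background. One genotype was wild type (WT) at Atxn2. The other was homozygous for Atxn2-CAG100-KIN (KIN), an expanded CAG repeat inserted into Atxn2 that models spinocerebellar ataxia type 2, an inherited degeneration of the cerebellum and other brain regions. No drug or other treatment was given in the labels, and the labels name no transgene or Cre. Astrocytes, microglia and neurons were each represented by 3 WT and 3 KIN libraries, 18 in all. Cells of a brain were separated with magnetic beads, first microglia by CD11b, then astrocytes by ACSA-2, and the neuronal fraction was what flowed through after other cells had been bound. A fraction is thus enriched for a cell type and not pure. In such bulk libraries, fewer cells of a type and less RNA per cell cannot be told apart.

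The libraries held 1211118 to 4316748 counts, lowest in neurons, and mature miRNA made up 5.05% to 10.4% of astrocyte counts, 5.09% to 8.46% of microglial counts and 0.964% to 2.13% of neuronal counts. Features with any count numbered 27657 to 32839 in WT astrocytes and 21874 to 23544 in KIN astrocytes, and 17884 to 29541 against 13941 to 20324 in microglia. The part of this difference in the results was not tested. Myeloid miRNAs marked the microglia (2835 to 3389 CPM, counts per 1000000 counts of the library, in WT), but the neuronal miRNAs miR-124, miR-128, miR-138, miR-132 and miR-212 together stood at 1382 to 3229 CPM in WT astrocytes and at 52.8 to 242 CPM in WT neurons, so these miRNAs went against the label of the neuronal fraction. Transcripts of the olfactory bulb and its neuroblasts summed to 21.5 to 52.0 CPM in WT neurons, 3.02 to 6.68 in WT astrocytes and 1.73 to 4.90 in WT microglia. Dlx1 (75) and Dcx (51) led their 168 neuronal counts, while Tbr1 and Omp had 0 there, against 4 and 2 in astrocytes. Features of 2 of the 10 genes were tested, and 3 of 3 were called higher in WT neurons than in astrocytes (median log2 fold change 5.595, against −0.50 over all features, 28.7% of which were called) and in microglia (5.26, against −0.15, 28% called). Choroid plexus transcripts were also higher there, with 11 of 11 tested features called over astrocytes (median 4.14) and 11 of 12 over microglia (4.91). Features scarce in glia could pass the filter on low counts only through neurons, so these calls are no support for the label. Xist, the transcript of the inactive X chromosome in females, was at 1.27 to 2.13 CPM in the 3 libraries of KIN replicate 1 and at 7.59 to 36.3 CPM in the other 15. The authors' methods describe same-sex pairs of littermates, 2 of them male and 1 female. The Xist values match neither the pairing nor these sexes. The cluster was low in the glia of KIN replicate 1 and of the other KIN replicates. No WT library lay on the low side of this split, and the part of sex in the levels of the cluster was not tested.

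MicroRNAs guide Argonaute proteins to messenger RNAs, mainly by pairing of their seed, bases 2 to 8 from the 5′ end. The hairpins of miR-183, miR-96 and miR-182 are cut from one shared primary transcript. The cluster is known best from sensory cells, where it is abundant in photoreceptors, hair cells of the inner ear and olfactory neurons, and changes in the seed of human miR-96 cause hereditary hearing loss. In the rest of the brain its levels are usually low.

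The mature sequences are shown because the family is defined by them. The seed is in capitals, letters are DNA, and positions were found by matching each sequence inside its annotated hairpin in GRCm39, with the same letters in RefSeq.
mmu-miR-183-5p: tATGGCACtggtagaattcact
mmu-miR-96-5p: tTTGGCACtagcacatttttgct
mmu-miR-182-5p: tTTGGCAAtggtagaactcacaccg
Counting from 1 at the 5′ end, the seeds of miR-183-5p and miR-96-5p differ by A2T, those of miR-96-5p and miR-182-5p by C8A, and those of miR-183-5p and miR-182-5p by both A2T and C8A. The 3 seeds are thus related but not identical. Over their whole length from the 5′ end, miR-183-5p and miR-182-5p are the most alike, with 18 of 22 bases identical, against 13 of 22 for miR-183-5p and miR-96-5p and 12 of 23 for miR-96-5p and miR-182-5p. The only other mature miRNA in the table with one of these seeds was mmu-miR-1271-5p, which shares that of miR-96-5p and had 0 counts in all 18 libraries.

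The 3 hairpins lie on the minus strand of mouse chromosome 6, within a span of 3820 bases. Mir183 is at chr6:30169667-30169736 and its 5p arm at chr6:30169710-30169731. Mir96 is at chr6:30169445-30169550 with its 5p arm at chr6:30169505-30169527, 116 bases from Mir183. Mir182 is at chr6:30165917-30165991 with its 5p arm at chr6:30165961-30165985, 3453 bases further. All 3 lie inside the annotated noncoding host gene Mirc35hg (chr6:30158627-30178453), which has no row in the count table. The nearest protein-coding genes are Nrf1 (chr6:30047892-30153462, plus strand), a transcription factor of mitochondrial biogenesis, and Ube2h (chr6:30211288-30304564, minus strand), an enzyme of ubiquitin transfer.

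The 5p arms carried nearly all reads of the cluster. The 3p arm of miR-183 had 7 counts over the 18 libraries, and those of miR-96 and miR-182 had 0, which allows up to 3 counts each. The 5p arms had 117 counts for miR-183-5p, 202 for miR-96-5p and 305 for miR-182-5p. These are small numbers, and all counting intervals given here cover counting error only.

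In WT glia all 3 miRNAs were present, at 2.21 to 16.8 CPM in a library, and in KIN glia few of their reads remained, at 0 to 1.81 CPM. Levels are CPM scaled by TMM, a factor per library that evens out composition. In astrocytes, miR-183-5p had 17, 14 and 20 counts in WT replicates 1 to 3 and 1, 1 and 3 counts in KIN, or 5.02 ± 1.19 against 0.514 ± 0.338 CPM (SD, n = 3 each). For miR-96-5p WT astrocytes had 42, 27 and 33 counts and KIN astrocytes 4, 1 and 2, or 10.1 ± 2.80 against 0.728 ± 0.479 CPM. For miR-182-5p WT astrocytes had 42, 36 and 55 counts and KIN astrocytes 4, 5 and 6, or 13.1 ± 3.59 against 1.56 ± 0.279 CPM. WT replicate 2 was the lowest WT library for each miRNA, and the highest KIN library still lay well below it.

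Microglia showed the same separation with fewer KIN reads. There miR-183-5p had 16, 6 and 12 counts in WT and 0, 0 and 1 in KIN, or 3.24 ± 1.10 against 0.0965 ± 0.167 CPM. For miR-96-5p WT microglia had 33, 16 and 28 counts and KIN microglia 0, 1 and 1, or 7.41 ± 1.59 against 0.189 ± 0.164 CPM. For miR-182-5p WT microglia had 28, 15 and 25 counts and KIN microglia 0, 4 and 1, or 6.57 ± 1.08 against 0.468 ± 0.578 CPM. KIN replicate 1 had 0 counts of all 3. At its depth a floor of 3 counts is 0.953 CPM of the library total, and the exact 95% counting interval of each reaches 1.17 CPM on that scale. WT replicate 2 was again the lowest WT library for each, and the genotypes did not overlap.

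**Figure D1:**
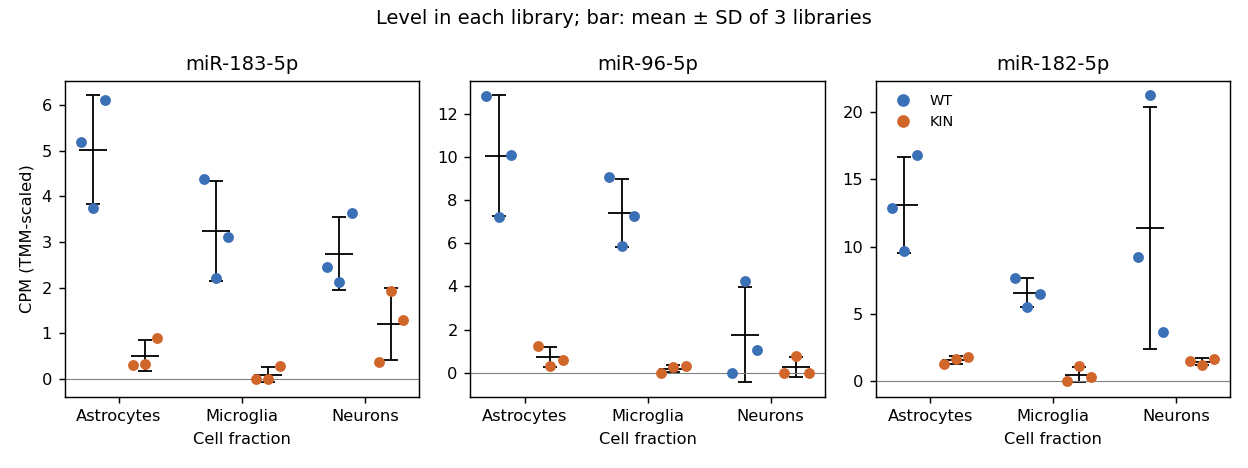
CPM (TMM-scaled, vertical axis, its own range per panel) of miR-183-5p, miR-96-5p and miR-182-5p by cell fraction (horizontal axis) in WT (blue) and KIN (orange), with 1 point per library and the mean ± SD of 3 libraries in black. In astrocytes and microglia every KIN point lies below every WT point, and in neurons WT replicate 2 is the highest library for miR-182-5p and miR-96-5p.

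With counts pooled over a group and divided by its library totals, WT astrocytes exceeded KIN astrocytes 10.5-fold for miR-183-5p (exact 95% counting interval 4.23 to 33.8), 15.0-fold for miR-96-5p (7.04 to 38.3) and 9.15-fold for miR-182-5p (5.35 to 16.8). In microglia the ratios were 37.7 for miR-183-5p (6.32 to 1531), 42.7 for miR-96-5p (11.4 to 359) and 15.1 for miR-182-5p (6.15 to 47.9). The wide upper limits follow from 1 and 2 KIN counts of miR-183-5p and miR-96-5p. The fitted log2 fold changes of KIN over WT in edgeR were −3.19 ± 0.54 (SE), −3.73 ± 0.50 and −3.05 ± 0.38 in astrocytes for miR-183-5p, miR-96-5p and miR-182-5p, and −4.57 ± 0.86, −4.96 ± 0.64 and −3.63 ± 0.67 in microglia. All 3 met the call rule used here, an adjusted p no higher than 0.05 with a log2 fold change of at least 1 in size, in both glial fractions. They were selected for this, so it is no support for it. The rule was met less widely when the libraries changed. In microglia none of the 3 met it once replicate 1 of WT, or replicate 2 or 3 of KIN, was left out, and only miR-96-5p met it without WT replicate 3 or with the replicate number as a block. In astrocytes miR-183-5p did not meet it once replicate 3 of WT, or replicate 1 or 2 of KIN, was left out. Over all features tested, 6.39% were called lower in KIN astrocytes (8.18% in either direction) and 2.94% in KIN microglia (4.35%), and all KIN libraries lay below all WT libraries for 25.9% and 18.5%. The fall was also seen among miRNAs alone. In abundance, miR-182-5p ranked 163 of 747 mature miRNAs detected in WT astrocytes and 372 of 803 in KIN, and 195 of 725 in WT microglia and 425 of 721 in KIN.

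**Figure D2:**
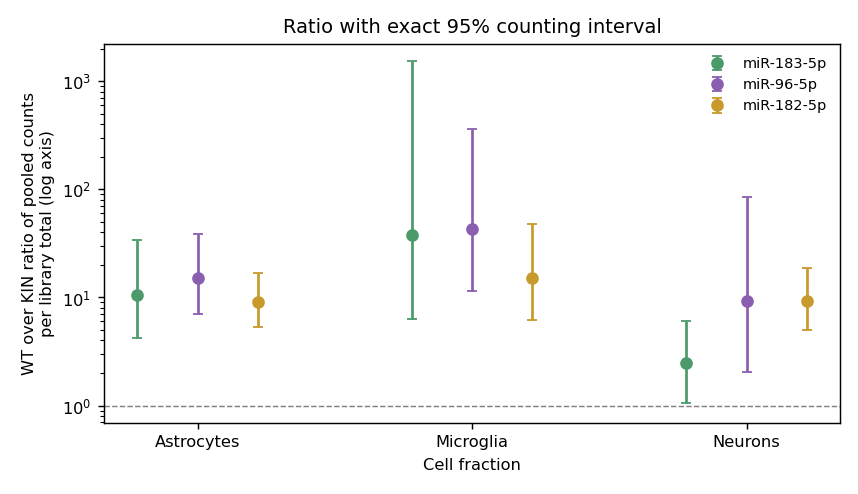
Ratio of WT over KIN (vertical log axis) of pooled counts per library total for each miRNA in each cell fraction (horizontal axis), with exact 95% counting intervals. The 9 intervals lie above 1 (dashed line), and that of miR-183-5p in neurons comes nearest, with a lower limit of 1.05. They cover counting error only and leave out the spread between libraries. Without WT replicate 2, that of miR-96-5p in neurons is 0.190 to 36.2 and includes 1.

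Neurons gave the comparison that the selection had not used. The 3 fractions were separated in sequence from the same brains, so this comparison is not independent of the glial ones. miR-182-5p was lower in each KIN library, miR-183-5p less clearly so, and neither passed the test over all features. For miR-182-5p WT neurons had 15, 50 and 7 counts and KIN neurons 4, 3 and 5, or 11.4 ± 9.00 against 1.43 ± 0.241 CPM. WT replicate 2 stood far above the other WT libraries, and the lowest WT library, replicate 3 at 3.64 CPM, was above the highest KIN library at 1.63 CPM. The log2 fold change was −3.07 ± 0.65 with an unadjusted p of 0.000772 and an adjusted p of 0.9175 (edgeR). The count ratio of WT over KIN was 9.20 (4.95 to 18.6), and 4.82 (2.28 to 10.7) without WT replicate 2.

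For miR-183-5p WT neurons had 4, 5 and 7 counts and KIN neurons 1, 5 and 4, or 2.74 ± 0.797 against 1.21 ± 0.786 CPM. The lowest WT library at 2.12 CPM was only just above the highest KIN library at 1.94 CPM. Its log2 fold change was −1.27 ± 0.68 with an unadjusted p of 0.0915 and an adjusted p of 0.9175 (edgeR), and its count ratio was 2.45 (1.05 to 6.04). miR-96-5p was scarce in neurons, with 0, 10 and 2 counts in WT and 0, 2 and 0 in KIN, so that the genotypes overlapped and it did not pass the filter of at least 5 counts in at least 2 libraries. Its count ratio was 9.20 (2.05 to 84.6), and 2.63 (0.190 to 36.2) without WT replicate 2, which held 10 of its 12 WT counts.

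No feature was called between genotypes in neurons, 0 of 4535 (0%) by edgeR and 0 by DESeq2, while 197 reached an unadjusted p of 0.05 by edgeR and 124 by DESeq2. Of the 2 members tested, 1 passed an unadjusted p of 0.05 in the direction of lower KIN, as did 3.13% of all features. For both, all KIN libraries lay below all WT libraries in CPM of the library total, as was so for 5.47% of all features. With TMM factors from mature miRNA alone, the adjusted p of miR-182-5p in neurons was 0.0106, and without a filter on low counts it was 0.00525 (edgeR), so its call depends on these settings. Without WT replicate 1 it was also called, with an adjusted p of 0.0112.

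The size of the fall was set side by side across fractions without a test, since the glial values had chosen the members. In a joint edgeR fit of all 18 libraries, whose values differ slightly from those of the separate fits above, the log2 fold change in microglia minus that in astrocytes was −1.35 ± 1.11 (SE) for miR-183-5p, −1.21 ± 1.21 for miR-96-5p and −0.55 ± 0.88 for miR-182-5p. The log2 fold change in neurons minus that in astrocytes was 2.02 ± 0.91 for miR-183-5p, 0.91 ± 1.8 for miR-96-5p and 0.06 ± 0.90 for miR-182-5p. The neuronal estimate thus lay near the astrocytic one for miR-182-5p and was smaller in size for miR-183-5p. That of miR-96-5p rests on few neuronal counts. For neurons minus microglia these differences were 3.36 ± 1.11, 2.12 ± 1.77 and 0.62 ± 0.92 in the same order.

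The levels of the 3 miRNAs across WT fractions were examined next. In TMM-scaled CPM each of them had its highest mean in astrocytes, and none of the differences passed the test in the main fits, which use no replicate block. Without TMM factors, per library total alone, the mean of miR-182-5p was highest in neurons, at 14.2 ± 10.6 CPM against 13.03 ± 3.84 in astrocytes, and that of miR-183-5p was higher in neurons than in microglia, at 3.48 ± 1.02 against 3.20 ± 1.44. For miR-182-5p the order was astrocytes at 13.1 ± 3.59, neurons at 11.4 ± 9.00 and microglia at 6.57 ± 1.08 CPM. The log2 fold change of neurons over astrocytes was −0.04 ± 0.59 (edgeR adjusted p 0.9634), and that of neurons over microglia was 0.98 ± 0.58 (0.2371). Microglia were lower than astrocytes without overlap of the libraries in CPM, with or without TMM factors. Per mature miRNA count these libraries did overlap. The share of all features without overlap in this comparison was not counted. The log2 fold change of microglia over astrocytes was −0.92 ± 0.38 with an adjusted p of 0.0771 (edgeR). With the replicate number as a block the adjusted p was 0.0341 (edgeR), but the log2 fold change stayed below the 1 that a call needs. For miR-183-5p astrocytes stood at 5.02 ± 1.19, microglia at 3.24 ± 1.10 and neurons at 2.74 ± 0.797 CPM, with log2 fold changes of −0.55 ± 0.45 for microglia over astrocytes (edgeR adjusted p 0.3555), −0.72 ± 0.46 for neurons over astrocytes (0.237) and −0.05 ± 0.55 for neurons over microglia (0.9598). Neighbours in this order did not differ beyond their spread.

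For miR-96-5p the WT fractions stood at 10.1 ± 2.80 CPM in astrocytes, 7.41 ± 1.59 in microglia and 1.76 ± 2.21 in neurons. The highest neuronal library, WT replicate 2 at 4.25 CPM, was below the lowest glial library at 5.89 CPM, although without TMM factors these libraries overlapped, at 5.11 and 4.61 CPM. Neurons over astrocytes gave −2.22 ± 0.76 on the log2 scale (edgeR adjusted p 0.0562), and neurons over microglia −1.76 ± 0.75 (0.1071). The difference between neurons and astrocytes lay close to the threshold and was called with DESeq2 (adjusted p 0.0213), in a joint edgeR fit of all 18 libraries (0.00748) and without WT neuron replicate 2 (edgeR adjusted p 0.00523, log2 fold change −3.88). With the replicate number as a block miR-96-5p was called lower in neurons than in astrocytes (−2.33 ± 0.70, edgeR adjusted p 0.0123) and than in microglia (−1.95 ± 0.72, 0.0266). The fractions of a brain were separated one after another and Xist was low in all 3 fractions of KIN replicate 1, but the labels do not say that a number marks a brain. Microglia and astrocytes did not differ beyond their spread for this miRNA (−0.37 ± 0.38, edgeR adjusted p 0.4684). Of the features tested, 31.5% were called between WT microglia and astrocytes, 28.7% between neurons and astrocytes and 28% between neurons and microglia, against 0 of 3 members in each without the block.

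The order of the fractions turned with the denominator. Mature miRNA took a smaller share of neuronal libraries than of glial ones, and per 1000000 mature miRNA counts miR-182-5p was highest in neurons, at 1011 ± 509 in WT neurons against 216 ± 92.8 in WT astrocytes and 118 ± 35.7 in WT microglia. miR-183-5p was at 299 ± 150, 83.0 ± 35.4 and 59.2 ± 27.9 in the same order. miR-96-5p was at 129 ± 133, 170 ± 91.5 and 134 ± 46.9, so by the mean of libraries it alone of the 3 was not higher in neurons on this scale. With its counts pooled, the ratio was 1.23 for neurons over astrocytes (exact 95% counting interval 0.615 to 2.24) and 1.36 for neurons over microglia (0.674 to 2.51). The WT glial libraries of miR-182-5p overlapped on this scale, with 108.9 to 274 in astrocytes and 84.9 to 156 in microglia. With TMM factors from mature miRNA alone, neurons exceeded astrocytes by 2.13 ± 0.63 on the log2 scale for miR-182-5p (edgeR adjusted p 0.00265) and by 1.64 ± 0.80 for miR-183-5p (0.0792), and they exceeded microglia by 2.94 ± 0.63 for miR-182-5p (0.000734) and by 2.10 ± 0.79 for miR-183-5p (0.0289). This scaling took the median log2 fold change over all features from −0.50 to 1.79 for neurons over astrocytes and from −0.15 to 1.97 for neurons over microglia. Relative to that median, miR-182-5p stood at 0.46 in neurons over astrocytes with the usual factors and at 0.34 with the mature miRNA factors, and miR-183-5p at −0.22 and −0.15. Which fraction stood highest thus changed with the scaling, for miR-182-5p already between TMM-scaled CPM and CPM of the library total. The fall in KIN glia did not turn with the denominator, and per 1000000 mature miRNA counts miR-182-5p stood at 216 ± 92.8 in WT and 15.2 ± 3.94 in KIN astrocytes, and at 118 ± 35.7 and 4.58 ± 5.70 in microglia. In neurons it was 1011 ± 509 in WT and 101 ± 25.03 in KIN, while the libraries of miR-183-5p overlapped on this scale, with 132 to 423 in WT and 20.05 to 155 in KIN.

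**Figure D3:**
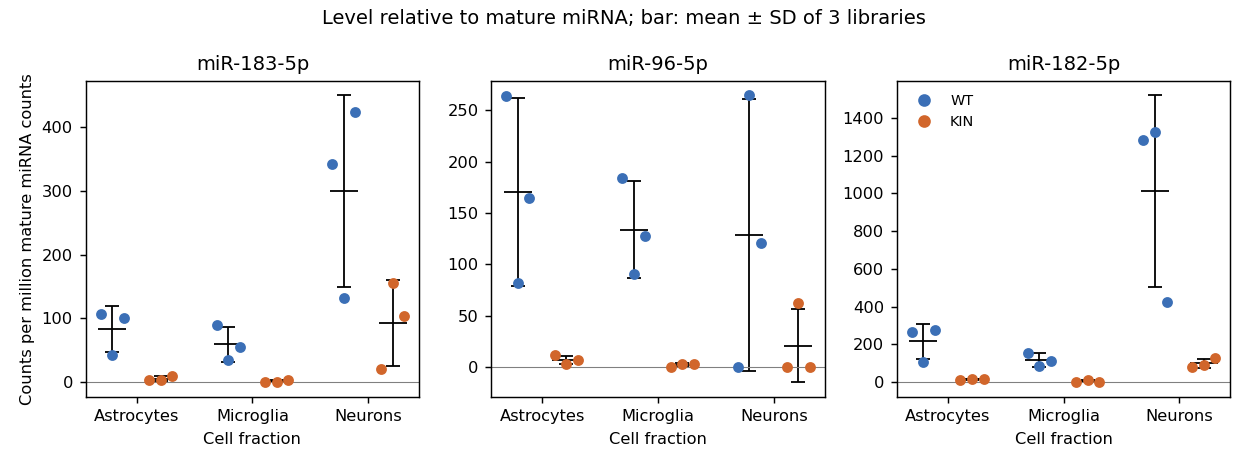
Counts of each miRNA per 1000000 mature miRNA counts (vertical axis, its own range per panel) by cell fraction (horizontal axis) in WT (blue) and KIN (orange), with 1 point per library and the mean ± SD of 3 libraries in black. On this scale WT neurons lie highest for miR-182-5p (1011 ± 509), while miR-96-5p in WT neurons spans the range from 0 to 265.

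The share of each miRNA in the cluster's own counts does not depend on either denominator. In WT astrocytes, with 286 counts, miR-182-5p made up 46.5% (exact binomial 95% interval 40.6 to 52.5), miR-96-5p 35.7% (30.1 to 41.5) and miR-183-5p 17.8% (13.6 to 22.8). WT microglia, with 179 counts, had 38.0% miR-182-5p (30.9 to 45.5), 43.0% miR-96-5p (35.7 to 50.6) and 19.0% miR-183-5p (13.5 to 25.5). The leading miRNA was thus miR-182-5p in astrocytes and miR-96-5p in microglia, with overlapping intervals. In WT neurons, with 100 counts, miR-182-5p made up 72% (62.1 to 80.5) and miR-96-5p 12% (6.36 to 20.02), both outside the glial intervals, but WT replicate 2 gave 65 of these counts and the libraries were unlike. The share of miR-182-5p was 78.95%, 76.92% and 43.75% in WT neuron replicates 1 to 3, the last within the interval of WT astrocytes, and that of miR-96-5p was 0%, 15.38% and 12.5%. Without replicate 2, a setting chosen after seeing the data, miR-96-5p held 2 of 35 counts (5.71%, 0.700 to 19.2) and miR-182-5p 22 of 35 (62.9%, 44.9 to 78.5). In KIN the cluster had 27 counts in astrocytes, 8 in microglia and 24 in neurons, too few to place the shares.

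**Figure D4:**
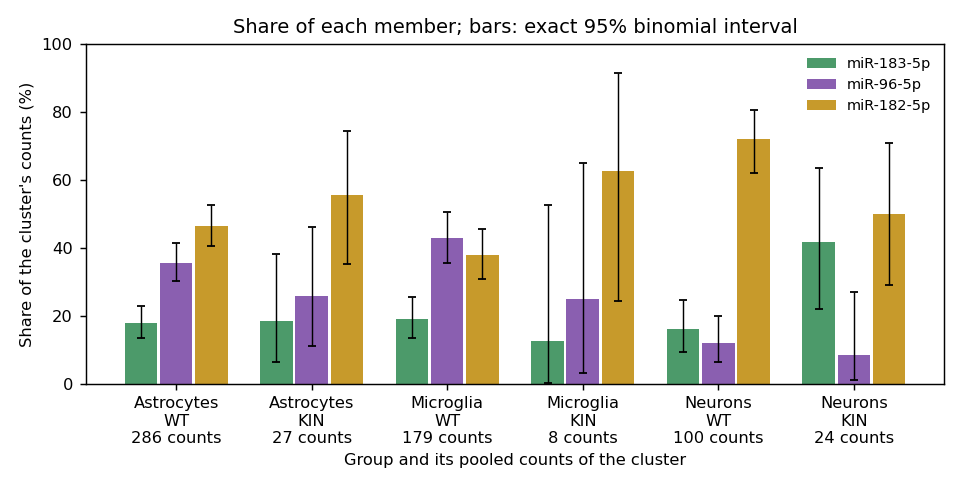
Share of the cluster's counts (vertical axis, in percent) taken by each miRNA in each group (horizontal axis, with the pooled counts of the cluster), with exact 95% binomial intervals. miR-182-5p reaches 72% in WT neurons, against 46.5% and 38.0% in WT astrocytes and microglia, and the KIN intervals are wide.

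In KIN fractions only miR-182-5p passed the filter on low counts, in 2 of the comparisons between fractions. Its log2 fold change of KIN microglia over KIN astrocytes was −1.53 ± 0.76, which did not pass the test (edgeR adjusted p 0.1256, 35.3% of all features called). Without KIN microglia replicate 2, which held 4 of its 5 counts, it was −2.94 ± 1.03 and was called (edgeR adjusted p 0.0392). Between KIN neurons and astrocytes its difference was 0.01 ± 0.61 (edgeR adjusted p 0.9945, 46.3% of all features called). With TMM factors from mature miRNA alone it was called higher in neurons, at 2.95 ± 0.70 (edgeR adjusted p 0.00015). Between KIN neurons and microglia, where 53% of all features were called, 0 of the 3 members passed the filter. In the joint fit of all 18 libraries miR-183-5p was called higher in KIN neurons than in KIN microglia (3.10 ± 0.96, edgeR adjusted p 0.0144), but not without a filter (adjusted p 0.2546).

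The hairpin genes are listed as separate Ensembl features, and their counts followed the mature counts. Mir183 had 81 counts in all, Mir96 162 and Mir182 233, or 65.3%, 80.2% and 76.4% of the counts of their mature arms, and in none of the 18 libraries did a hairpin exceed its mature arms. Mature miRNAs were mapped before noncoding transcripts, and by the authors' methods only reads left over from a round entered the next. A read counted on a hairpin was thus not counted on a mature arm as well. Both come from the same hairpins in the same libraries, so hairpin counts do not count as a second observation. In astrocytes Mir182 had 28, 33 and 45 counts in WT and 4, 4 and 6 in KIN, and in microglia 16, 7 and 17 in WT and 0, 3 and 0 in KIN. Between WT fractions Mir182 was lower in microglia than in astrocytes (−1.36 ± 0.41 on the log2 scale, edgeR adjusted p 0.0245), a call its mature arm missed. This call was lost without any 1 of the WT astrocyte libraries and without WT microglia replicate 1 or 3 (edgeR adjusted p up to 0.143).

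The genes around the cluster were thinly covered and were not concentrated in WT. The transcripts of Nrf1 had 18 counts in WT and 18 in KIN astrocytes, and 20 and 17 in microglia. Those of Ube2h had 11 and 14 counts in astrocytes and 17 and 11 in microglia. The noncoding neighbour Rncr4 had 1 count over the 18 libraries.

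Over the 18 libraries the members varied together. Pearson's r of log2(CPM + 1) was 0.789 for miR-183-5p with miR-96-5p, 0.844 for miR-183-5p with miR-182-5p and 0.775 for miR-96-5p with miR-182-5p. Over the 9 WT libraries alone r was 0.535, 0.17 and 0.325, and the values over all 18 include the genotype difference for which the members were chosen. These libraries share brains, cell fractions and depth, and the values are descriptions.

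The features most like the cluster were ranked among 8201 by their mean r with the 3 members, a measure that also includes this genotype difference. The leading mature miRNAs were mmu-miR-429-3p (0.818), mmu-miR-200a-3p (0.801) and mmu-miR-200b-3p (0.771), which belong to the miR-200 family and are known for maintaining the epithelial state, followed at a distance by mmu-miR-133a-3p (0.510), a muscle miRNA, and the activity-dependent neuronal mmu-miR-212-3p (0.489). Among other features the hairpins Mir96 (0.852), Mir183 (0.831) and Mir182 (0.827) stood beside 2 noncoding transcripts. A transcript of Gm13648 (0.862), at chr4:156137172-156144278 on the minus strand, spans the hairpin genes Mir200b, Mir200a and Mir429, of which 1 lies within an exon. It had 13, 8 and 21 counts in WT and 1, 1 and 0 in KIN astrocytes, and 8, 6 and 12 against 0, 1 and 0 in microglia. A transcript of Gm48508 (0.830), at chr12:45140765-45208831 on the plus strand, had 14, 9 and 10 counts in WT and 1, 1 and 2 in KIN astrocytes, and 11, 2 and 7 against 1, 1 and 1 in microglia. The 3 leading mature miRNAs and the Gm13648 transcript thus lay at a single locus of chromosome 4. As this transcript spans their hairpins, it does not count as a separate observation. Over the 9 WT libraries alone its mean r was 0.550. That of miR-429-3p, miR-200a-3p and miR-200b-3p was 0.458, 0.632 and 0.609.

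The miR-200 family was set beside the cluster as its 5 mature miRNAs, miR-200a-3p, miR-200b-3p, miR-200c-3p, miR-141-3p and miR-429-3p. In astrocytes all 4 that were tested were called lower in KIN (median log2 fold change −5.56, against −0.19 over all 5694 features tested, 6.39% of which were called lower). In microglia all 5 were lower and 3 of them were called (median −2.21, against −0.11, with 2.94% of all features called lower). The list was chosen with earlier results of these data known, and in astrocytes the 4 passed the filter on low counts through WT libraries alone. These calls are thus a description and no support for a link with the cluster. In astrocytes miR-429-3p and miR-200c-3p were not called without KIN replicate 3 (edgeR adjusted p 0.0524 and 0.0613), and in microglia none of the 3 was called once replicate 1 of WT, or replicate 2 or 3 of KIN, was left out (up to 0.118). In neurons 0 of 4 were called by edgeR or DESeq2 and 3 of 4 had an unadjusted p below 0.05, with a median of −2.39 against −0.11, and miR-200a-3p came nearest with −2.68 ± 0.62 (edgeR unadjusted p 0.00135, adjusted p 0.9175). The family differed from the cluster in KIN microglia, where it was still at 9.85 to 21.1 CPM per library total against 41.8 to 70.0 CPM in WT, while the cluster was at 0 to 1.16 against 10.7 to 22.2 CPM. There miR-200c-3p had 14, 41 and 31 counts in KIN and 38, 26 and 35 in WT, so its genotypes overlapped.

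**Figure D5:**
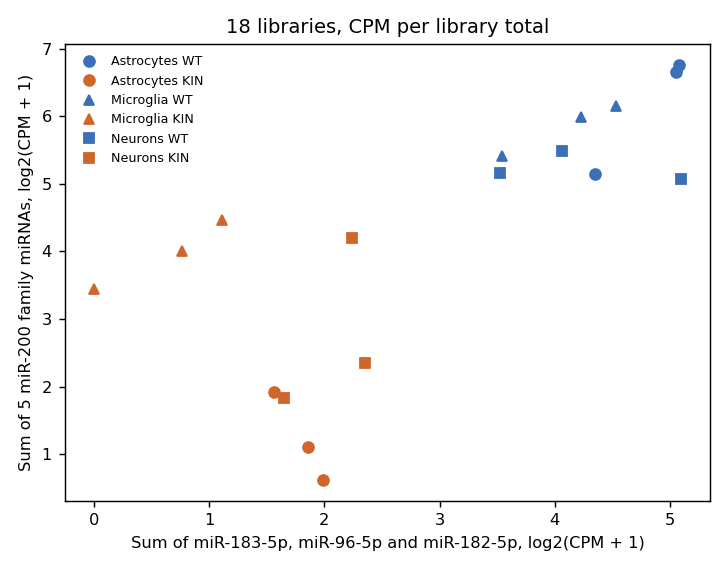
Summed level of the 3 cluster miRNAs (horizontal axis) and of the 5 miR-200 family miRNAs (vertical axis) as log2(CPM + 1) per library total, with 1 point per library, colour for genotype and shape for cell fraction. The 9 KIN libraries lie to the left of the 9 WT libraries, and KIN microglia keep more of the family (9.85 to 21.1 CPM) than KIN astrocytes (0.537 to 2.79 CPM).

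Because the cluster marks sensory cells, transcripts typical of pineal gland and photoreceptors, of the olfactory bulb and its neuroblasts, of choroid plexus, of ependyma and of pituitary were counted in the same libraries. Of 16 pineal and photoreceptor genes none passed the filter in any genotype comparison. Their summed level was 2.26 to 3.95 CPM in WT and 0.269 to 1.16 CPM in KIN astrocytes, and 1.44 to 4.36 against 0.953 to 1.40 CPM in microglia, with 9 and 12 of the 16 genes at 0 counts in WT and KIN astrocytes and 10 of 16 in each genotype of microglia. Sag, which encodes arrestin of rods and pinealocytes, gave 19 counts in WT and 4 in KIN astrocytes and 12 and 5 in microglia. Aanat, the timing enzyme of melatonin synthesis, had 1 count over all 18 libraries, and Asmt, which makes melatonin in its last step, had 0. Olfactory bulb and neuroblast genes stood at 3.02 to 6.68 CPM in WT and 1.08 to 2.91 CPM in KIN astrocytes and at 1.73 to 4.90 and 0.695 to 2.33 CPM in microglia, with most of these counts from Pax6 (29 and 19 in astrocytes, 28 and 16 in microglia). Both lists thus had lower sums in KIN glia at a few CPM, with overlap for the olfactory bulb list in microglia, and their part in the levels of the cluster was not tested. Lower sums were not particular to these lists. Genes reported elsewhere as targets of the cluster stood at 26.9 to 33.7 CPM in WT and 13.2 to 20.9 CPM in KIN astrocytes. Choroid plexus and ependymal transcripts had more counts in KIN astrocytes. Over all features tested, all KIN libraries lay below all WT libraries for 25.9% in astrocytes and 18.5% in microglia. In neurons, where the values of miR-182-5p were also lower in KIN, the pineal and photoreceptor list stood at 1.65 to 2.62 CPM in WT and 1.24 to 3.71 CPM in KIN. In neurons 4 of the 10 olfactory bulb genes were tested and 0 were called by edgeR, with a transcript of Dlx1 at −1.08 ± 0.47 (unadjusted p 0.0428, adjusted p 0.9175).

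The other cell type lists had no common direction. In astrocytes, choroid plexus transcripts had 347 counts in WT and 438 in KIN and 0 of 7 tested features called by edgeR or DESeq2 (0 at an unadjusted p below 0.05), ependymal transcripts 25 and 50 counts with none tested, and pituitary transcripts 5 and 0 with none tested. Among miRNAs of multiciliated cells, none of the 4 tested was lower in KIN astrocytes and 3 were called higher by edgeR, led by miR-34b-3p at 1.07 ± 0.17 (edgeR adjusted p 0.00696). All 4 had an unadjusted p below 0.05 by edgeR, and 102 of 5694 features were called higher there. In microglia 0 of 4 were called by edgeR or DESeq2 (1 at an unadjusted p below 0.05). None of the 3 myeloid miRNAs was lower in KIN astrocytes and 1 was called higher, miR-142a-3p at 1.96 ± 0.33 (edgeR adjusted p 0.00975). The same was so for the 3 oligodendrocyte miRNAs, with miR-219a-5p called at 1.11 ± 0.21 (0.0151). Of the 2 lists, 2 myeloid and 3 oligodendrocyte miRNAs had an unadjusted p below 0.05 by edgeR. The choroid plexus miRNA miR-211-5p rose in KIN microglia by 3.03 ± 0.35 (edgeR adjusted p 0.00692), and miR-124-3p, the leading neuronal miRNA, fell there by 1.28 ± 0.31 (0.0485). Each of these calls was lost when 1 of several libraries was left out, WT replicate 1 among them in every case, with edgeR adjusted p up to 0.12 in astrocytes and 0.186 in microglia. None of the vascular, erythroid or neuroendocrine miRNAs was called in glia by edgeR, out of 4, 2 and 3 tested (0, 0 and 1 had an unadjusted p below 0.05 in astrocytes, and 1, 2 and 2 in microglia), although erythroid miR-486a-5p stood 2.23 ± 0.64 higher in KIN microglia (unadjusted p 0.00614, adjusted p 0.0757) and both erythroid miRNAs were called there by DESeq2. In neurons 0 features of any list were called by either tool.

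Genes reported elsewhere as targets of the cluster were looked up among the transcript fragments of these small RNA libraries, which are a poor measure of messenger RNA. Of 21 such genes, 3 were tested in astrocytes and 1 was called, a transcript of Celsr2, a cadherin of planar cell polarity, which fell by 1.63 ± 0.41 on the log2 scale in KIN (edgeR adjusted p 0.0360). It was not called by DESeq2 (adjusted p 0.052), nor by edgeR in 5 of the 6 fits that left out a library. The others tested were the transcription factor Foxo1 at 0.56 ± 0.47 (edgeR adjusted p 0.434) and the Wnt co-receptor Lrp6 at −0.40 ± 0.54 (0.644). In microglia 0 of 8 tested features from 6 genes were called by edgeR or DESeq2, with a median of −0.53 against −0.11 over all features, and the immediate early gene Egr1 had the lowest unadjusted p with a transcript at −1.29 ± 0.57 (unadjusted p 0.0484, adjusted p 0.194). In neurons 0 of 5 were called by edgeR or DESeq2, with a median of 0.40 against −0.11, and none had an unadjusted p below 0.4. No rise of these genes was detectable in KIN glia at this depth.

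Genes that make and use miRNAs gave no call in any fraction by edgeR or DESeq2, and 2, 1 and 0 features had an unadjusted p below 0.05 by edgeR in astrocytes, microglia and neurons. In astrocytes 13 features from 8 such genes were tested, all 13 with a negative log2 fold change (median −0.39, against −0.19 over all features), and a transcript of Dicer1, the gene of the enzyme that cuts the hairpin, had the lowest p, with −2.22 ± 0.84 (edgeR unadjusted p 0.0240, adjusted p 0.0962). In microglia 11 features from 7 genes were tested (median −0.14, against −0.11), led by a transcript of Tnrc6a, the gene of an Argonaute partner, at −5.29 ± 1.53 (edgeR unadjusted p 0.00962, adjusted p 0.0891). In neurons 14 features from 4 genes gave a median of −0.03 against −0.11, with a transcript of Tnrc6b at −0.84 ± 0.44 (edgeR unadjusted p 0.0869, adjusted p 0.9175).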

How the data were processed

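Small RNA was sequenced from 18 libraries of astrocyte, microglial and neuronal fractions of WT and KIN mouse brains. The authors' processing notes name cutadapt 4.6, Bowtie2 2.4.4 and HTSeq 2.0.2, and their methods describe mapping in successive rounds to mature miRNAs, tRNAs, piRNAs, noncoding and coding transcripts of mm39, with counting without strand. The counts as deposited are whole numbers of reads for each feature and are not normalized. Collapsing by molecular identifiers is not stated for these libraries, so intervals cover counting error only. The table also holds 15 columns of the authors' own comparisons (fold changes and p-values), 18 group columns and 36 further columns of per-library values on other scales, none of which was used.

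Counts were fitted in edgeR 4.0.16 (R 4.3.3, limma 3.58.1) by the quasi-likelihood test with TMM, separately for the 6 libraries of each comparison, on features that reached 5 counts in at least 2 libraries. P-values were adjusted over all features tested by the method of Benjamini and Hochberg, and a call needed an adjusted p no higher than 0.05 with a log2 fold change of at least 1 in size. The scripts were tested on simulated data. Counting intervals are exact at 95% (SciPy 1.17.1), and log2(CPM + 1) was used for correlations. DESeq2 1.42.0, other scalings, no filter, a joint fit, a replicate block and leaving out single libraries were tried. Group and replicate number came from the titles. The design names 3 WT and 3 KIN mice, and the 3 fractions of a brain were separated in sequence, but the labels do not say that a number marks a brain. Same-numbered libraries did not all deviate together (in no comparison did all 3 pairs exceed a correlation of 0.1), so fits have no block. Between WT fractions 1 or 2 of the 3 pairs did exceed it, with a correlation of up to 0.314, so a pairing there is not excluded. Blocked values are given where they change a call.

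The members and gene lists were chosen with earlier results of these data known. Named were the members, their other arms, hairpins and neighbours, miRNAs with the same seed, the 5 mature miRNAs and 5 other features most correlated with the members, and up to 4 genes of lowest p from each list. Sequences were taken from the table and compared with RefSeq, and positions are from GRCm39 with GENCODE annotation.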

Additional observations from a re-analysis of the deposited data

How the results depend on the processing

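The fall of the 3 miRNAs in KIN glia kept its direction in every fit run, but the calls did not all hold. In microglia none of the 3 was called once replicate 1 of WT, or replicate 2 or 3 of KIN, was left out, and with the block or without WT replicate 3 only miR-96-5p was. In astrocytes miR-183-5p lost its call once replicate 3 of WT, or replicate 1 or 2 of KIN, was left out. With TMM factors from mature miRNA alone its log2 fold change was −3.90, −4.50 and −3.78 in astrocytes and −4.99, −5.40 and −4.09 in microglia for miR-183-5p, miR-96-5p and miR-182-5p. Without 1 library it ran from −3.85 to −2.95 for miR-183-5p and from −4.34 to −3.41 for miR-96-5p in astrocytes, and from −6.44 to −4.01, −5.24 to −4.63 and −5.01 to −3.24 for the 3 in microglia. In neurons the log2 fold change of miR-182-5p in KIN was −3.01 with these TMM factors and −2.92 without a filter, both called, and −3.46 to −2.32 without 1 library. In WT neurons over astrocytes the mature miRNA factors gave 1.64 for miR-183-5p and 2.13 for miR-182-5p, library totals gave 0.14 for miR-182-5p, and omitting 1 library gave −0.82 to 0.56 for it. For miR-96-5p DESeq2 gave −2.27, no filter −2.46 and the joint fit −2.35, all called, and omitting 1 library −3.88 to −1.65. Over microglia, WT neurons gave 2.10, 0.052 and 2.94 for miR-183-5p, miR-96-5p and miR-182-5p with mature miRNA factors, 0.11 for miR-183-5p with library totals, and −1.92 for miR-96-5p in the joint fit, and omitting 1 library gave −0.29 to 0.27 and −3.30 to −1.26 for the first and second of these. Without WT neuron replicate 2 miR-96-5p was called there too (edgeR adjusted p 0.00818). In KIN neurons over astrocytes miR-182-5p, at 0.01, was called at 2.95 with mature miRNA factors (edgeR adjusted p 0.00015), turned to −0.16 without a filter, to −0.11 in the joint fit and ran from −0.18 to 0.064 when 1 library was left out. In KIN microglia over astrocytes it ran from −2.94, called without KIN microglia replicate 2, to −1.20. The ratio of mean levels of WT neurons over astrocytes per 1000000 mature miRNA counts was 3.61, 0.755 and 4.68 for miR-183-5p, miR-96-5p and miR-182-5p. With a replicate block miR-96-5p was at −2.33 in WT neurons over astrocytes and −1.95 over microglia, both called (edgeR adjusted p 0.0123 and 0.0266), and miR-183-5p over microglia was at 0.017. These mature miRNA factors shifted the median over all features by −0.68 in KIN astrocytes and by 2.29 in WT neurons over astrocytes, so relative to all features miR-182-5p in KIN astrocytes stood at −2.87 before and −2.92 after. Counts of called features moved with single libraries, from 466 to 41 without WT replicate 3 and 1527 without WT replicate 2 in astrocytes, and from 215 to 0 without WT replicate 1 and 940 without WT replicate 2 in microglia (49 with the block). In neurons 0 became 26 with mature miRNA factors and 75 without a filter, and between WT fractions the mature miRNA factors gave 3104 for 1698 and 3178 for 1446 calls of neurons over astrocytes and microglia, 2926 and 2965 of them higher in neurons against 606 and 695. The causes of these shifts were not tested. Depth limits the neuronal values and all KIN values, which rest on 1 to 15 counts per group and miRNA.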
